A study of Mus musculus with 3 samples.

Results

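A list of 10 genes of glucose uptake and glycolysis was read in CD11b+ dendritic cells (DCs) of the mouse spleen. The list names the glucose transporter Slc2a1, the hexokinases Hk1, Hk2 and Hk3, glucose phosphate isomerase (Gpi1), the phosphofructokinases Pfkl and Pfkp, triosephosphate isomerase (Tpi1), phosphoglycerate kinase (Pgk1) and the regulatory enzyme Pfkfb3. The genes were chosen by name, and each was read through the probe sets whose annotation names that gene and no other. Of the 10 genes, 9 had such a probe set, with 12 probe sets in all, among 19938 genes with a probe set of their own. Gpi1 had none, whether searched by symbol or by Entrez number, so no value for it is given. All 9 measured genes were above background on all 3 arrays.

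Glycolysis splits glucose into pyruvate. Transporters of the Slc2a family bring glucose into the cell, hexokinases trap it as a sugar phosphate, and phosphofructokinase commits it to the pathway. PFKFB3 makes a fructose bisphosphate that strongly activates phosphofructokinase. The lower enzymes, TPI1 and PGK1 among them, then carry the carbon to pyruvate and return ATP. Dendritic cells are known to raise glycolysis when they meet microbial products, and several of these genes are classical targets of the hypoxia-inducible factor HIF-1.

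The 3 arrays (Affymetrix Mouse Gene 1.0 ST, which reads whole transcripts) each held RNA of 1 sorted population from the pooled spleens of 2 to 3 mice. Every mouse carried the Cx3cr1-GFP reporter and RBPJflox/flox, and the groups differed by CD11c-Cre. The first 2 populations came from Cre-negative littermates and were sorted from CD11c(hi) CD11b+ cells as Esam(hi) GFP(lo) and as Esam(lo) GFP(hi), after magnetic removal of lymphoid and erythroid cells. The other was the Esam(lo) GFP(hi) population of mice with CD11c-Cre, which drives deletion in cells that express CD11c, so RBPJ, the nuclear partner of Notch, is labelled as lost there. The age of the mice was not stated in the labels used here. Each group had 1 array, so there is no replicate error, no test was made, and every difference below is a difference between arrays. The labelled cells came from other mice than the control cells. Whether the 2 control populations came from the same pooled mice is not known here.

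Values are log2 expression levels of probe sets. The background of an array was taken as the 95th percentile of 1194 receptor genes of smell and pheromone sensing, and came to 7.17 for control Esam(hi), 6.76 for control Esam(lo) and 6.87 for the array labelled RBPJ-deficient. The sorted cells carried the genes of their sort. Itgax, which encodes CD11c, read 12.36, 12.50 and 12.44 in this order. Esam read 7.79 on the Esam(hi) array and was not above background on either Esam(lo) array (6.57 and 6.12). Itgam, which encodes CD11b, was above background on all 3 arrays. It was at least 2-fold lower on the control Esam(hi) than on the control Esam(lo) array (difference -1.08). All 7 conventional DC markers were above background on each array. Rbpj itself read 9.85, 9.85 and 10.04, so the array labelled RBPJ-deficient had no lower value. Whether its probes lie in the deleted part is not known here, and that array is called by its label throughout.

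The comparison of the control subsets asks how Esam(hi) and Esam(lo) cells of control mice differ. In the deposited values all 9 measured genes were lower in control Esam(hi) than in control Esam(lo) cells, and 7 were lower once set beside genes of like level (8 with Hk1 read by the dimmer of its 2 probe sets). The differences ran from -1.29 for Pgk1 to -0.11 for Pfkfb3, with a median of -0.76. A lower value was also the rule for the array, since 71.2% of the 9196 genes above background were lower on it, with a median of -0.32 over these genes. At least 2-fold lower were 3 of the 9, Pfkp, Tpi1 and Pgk1, beside 11.6% of all genes above background.

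The size of the array-wide shift depended on how bright a gene was. Among all genes the median of Esam(hi) minus Esam(lo) was 0.15 at mean levels from 6 to 7, -0.01 from 7 to 8, -0.43 from 8 to 9 and -0.51 from 9 to 10. Each gene was therefore set beside the 500 genes nearest to it in mean level, and the median difference of those 500 was subtracted to give a level-matched difference. The median of the level-matched differences over the 9 genes was -0.34, and it was -0.01 over all genes above background. Of the 9 genes, 7 had a level-matched difference below 0, as had 50.7% of all genes, and Hk1 and Pfkfb3 turned to the other side of 0. None was 2-fold lower on this scale, where 4.98% of all genes were. Pgk1 alone lay below the 10th percentile of its 500 neighbours, as did 11.9% of all genes. In bulk RNA such as this, fewer cells of a type and less RNA per cell cannot be told apart.

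**Figure D1:**
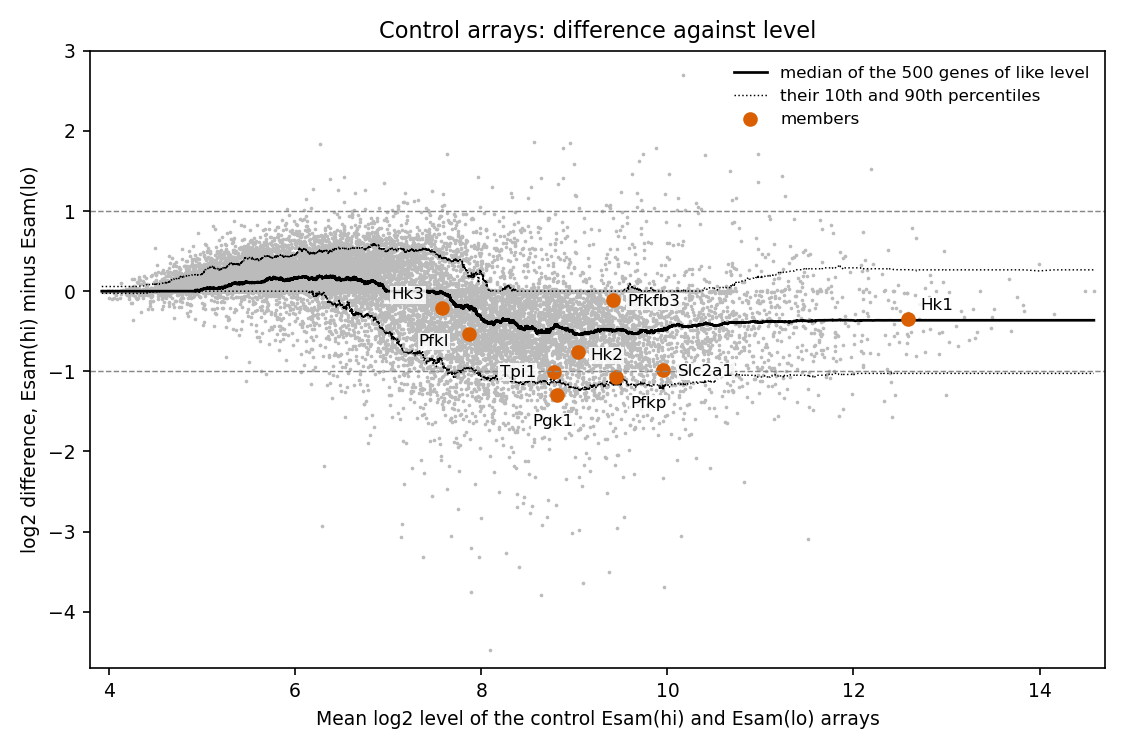
Difference between the control arrays (log2, Esam(hi) minus Esam(lo), vertical axis) against the mean log2 level of both (horizontal axis) for 19938 genes (grey), with the 9 measured glycolysis and glucose uptake genes in orange. The solid line is the median of the 500 genes of like level, dotted lines are their 10th and 90th percentiles, and dashed lines mark 2-fold. At the levels of the 9 genes the solid line is itself below 0 (from -0.01 to -0.53), Pgk1 lies below the lower dotted line, and Pfkfb3 lies above the solid line.

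Glucose uptake was represented by Slc2a1, which encodes the widely expressed transporter GLUT1. Slc2a1 read 9.47 in control Esam(hi) cells, 10.45 in control Esam(lo) cells and 10.49 in the cells labelled RBPJ-deficient. The Esam(hi) array thus stood apart from the other arrays, and these had nearly the same value. The control difference of -0.98 (1.97-fold) was just short of 2-fold, and the level-matched difference was -0.50. Slc2a3, which encodes the high-affinity transporter GLUT3, differed less between the control arrays, with values of 9.56, 9.72 and 9.89 in the same order. Its control difference of -0.16 was smaller in size than the median of its 500 neighbours (-0.53). Slc2a6, a transporter gene of leukocytes, read 10.08, 10.50 and 10.67 and had the difference its level gave (-0.42, neighbours -0.43). Of 11 other glucose transporter genes on the list these 2 alone were above background in this comparison. The liver form Slc2a2 and the insulin-regulated form Slc2a4 were not above background there.

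The hexokinases, which phosphorylate glucose, differed less than 2-fold. Hk2, the inducible form, read 8.66, 9.42 and 9.19 in control Esam(hi), control Esam(lo) and labelled cells. It was lowest on the Esam(hi) array, with a control difference of -0.76 (1.69-fold) and a level-matched difference of -0.22. Hk3, a form of myeloid cells, read 7.47, 7.68 and 7.68, close to the Esam(hi) background of 7.17. Its control difference was -0.21. Hk1, the form found in most tissues, had 2 probe sets that did not give the same picture. Probe set 10369541, annotated with 8 mRNA records of Hk1, read 7.96, 8.58 and 8.58, a control difference of -0.62 and a level-matched difference of -0.25.

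The other Hk1 probe set, 10414661, read 12.41, 12.76 and 12.76, with a control difference of -0.34 and a level-matched difference of 0.02. It was annotated with 1 mRNA record, and 16 further probe sets shared that record while naming several genes. All 16 named Rpl17, a ribosomal protein gene. These 16 read between 10.90 and 12.52 in Esam(hi) cells and between 11.41 and 12.96 in control Esam(lo) cells, so probe set 10414661 had the brightness of that group. Whether it reads Hk1 was not tested. It represents Hk1 in the counts here, because a gene with several probe sets was taken at its brightest one. With probe set 10369541 in its place the count of genes at least 2-fold lower was again 3 and the median again -0.76, while 8 in place of 7 genes had a level-matched difference below 0.

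**Figure D2:**
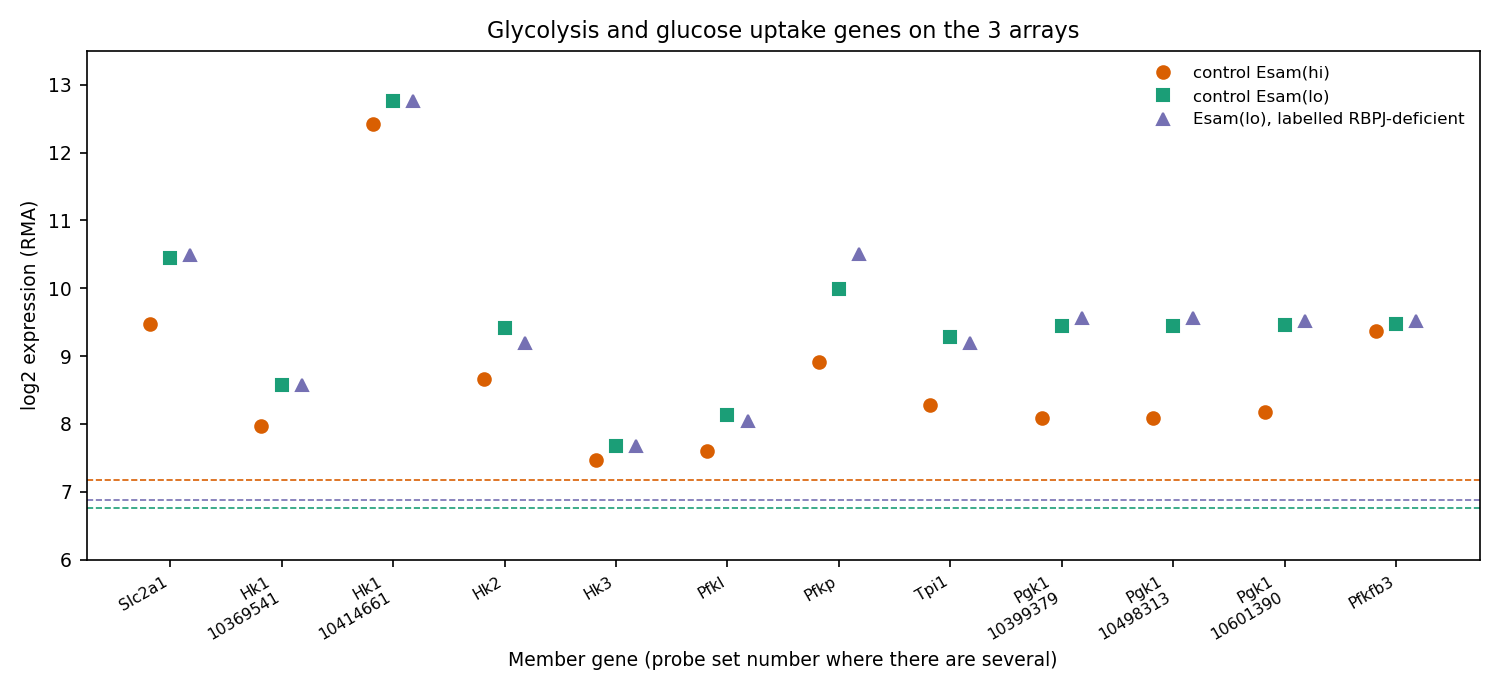
Deposited log2 expression (vertical axis) of the 12 probe sets of the 9 measured genes in control Esam(hi) cells (circles), control Esam(lo) cells (squares) and Esam(lo) cells labelled RBPJ-deficient (triangles), 1 array each, with each array's background as a dashed line. The circle is the lowest of the 3 points for every probe set on this scale, which holds the array-wide shift, and Pfkp is the gene whose square and triangle are farthest apart (9.98 and 10.50).

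Phosphofructokinase, the committed step, was read as its liver form (Pfkl) and its platelet form (Pfkp). Pfkp read 8.91 in control Esam(hi), 9.98 in control Esam(lo) and 10.50 in labelled cells, so all 3 arrays differed. Between the control arrays it was 2.10-fold lower on that of Esam(hi) cells, with a level-matched difference of -0.59 that lay inside the range of its neighbours. Pfkl read 7.60, 8.13 and 8.04, a control difference of -0.53 and a level-matched difference of -0.34.

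Pfkfb3, whose product sets the pace of phosphofructokinase, had the smallest difference of the 9 genes between the control arrays in the deposited values. It read 9.36, 9.47 and 9.52, close to each other on all arrays. Its control difference was -0.11 where the 500 genes of like level had a median of -0.49, which gave a level-matched difference of 0.39, larger in size than those of Hk1, Hk2, Hk3 and Pfkl. Its direction therefore depended on the scale: Pfkfb3 was lower on the Esam(hi) array in the deposited values and higher there after level matching, quantile normalization (0.23) or removal of a smooth trend (0.35).

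The enzymes below phosphofructokinase were both at least 2-fold lower on the control Esam(hi) array. Tpi1, which interconverts the triose phosphates, read 8.27, 9.29 and 9.20, so Esam(hi) cells had a 2.02-fold lower value, with a level-matched difference of -0.56. Pgk1, which makes the first ATP of the pathway's later phase, had 3 probe sets. The brightest, 10601390, read 8.17, 9.46 and 9.52. The other probe sets, 10399379 and 10498313, had identical values on every array (8.09, 9.44 and 9.56), so they may not be separate readings. The Esam(hi) array was the low one in each of them. By the brightest probe set Pgk1 was 2.45-fold lower there, and its level-matched difference of -0.85 was the largest in size of the 9 genes. The gene table lists 3 pseudogenes named after Pgk1, so transcripts of near-identical copies could add to these probe sets, and their share was not tested.

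RefSeq windows of 250 bases before the start and 50 after it (build GRCm38.p6) were searched for ACGTG, the core of the HIF response element, and for TGGGAA, the core of the site bound by RBPJ, on both strands. The reverse complements are CACGT for the first and TTCCCA for the other, and the palindrome CACGTG holds both strands of the first. All 10 genes matched the table, with 12 windows, since Hk1 and Pfkfb3 have 2 each. ACGTG was found in 7 of the 12 windows (58.3%), in 6 of the 10 genes, and in 19.6% of all 32851 windows of the table. The content of G and C in the 12 windows ran from 49.0% (Hk3) to 69.7% (the first window of Pfkfb3), and the median window of the table had 52.7%. The Hk3 window, which holds ACGTG, and the first Hk1 window (51.3%), which does not, were below that median, and the others were above it. ACGTG itself holds the pair CG, which the median window of the table had 7 times. The Hk3 window had 7 and the first Hk1 window 1. The others had from 15 (Tpi1) to 30 (the first window of Pfkfb3). The share of ACGTG among windows equally rich in CG was not taken, so 19.6% is not a matched background. TGGGAA was found in 1 of the 12 windows, that of Pgk1, and in 25.6% of all windows. A match is a description of letters and not a measured site.

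The 250 bases upstream of the start, 5' to 3' on the gene's strand, are shown for the 3 genes at least 2-fold lower on the control Esam(hi) array and for Pfkfb3, whose deposited control difference was the smallest, with matches to either motif on either strand in capitals. Pgk1 (chrX:106186850-106187099, plus strand) held ACGTG and CACGT close together and TGGGAA near the start. Pfkp (chr13:6648772-6649021, minus strand) and Tpi1 (chr6:124814159-124814408, minus strand) held no match. The second window of Pfkfb3 (chr2:11502091-11502340, minus strand) held CACGTG, as did 7.15% of all windows. So matches were not limited to the genes past 2-fold, nor present in all of these.
Pgk1: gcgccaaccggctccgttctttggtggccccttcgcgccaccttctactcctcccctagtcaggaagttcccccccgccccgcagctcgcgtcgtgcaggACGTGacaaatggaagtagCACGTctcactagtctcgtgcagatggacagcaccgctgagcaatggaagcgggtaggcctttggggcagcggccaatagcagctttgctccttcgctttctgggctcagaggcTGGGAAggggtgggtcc
Pfkp: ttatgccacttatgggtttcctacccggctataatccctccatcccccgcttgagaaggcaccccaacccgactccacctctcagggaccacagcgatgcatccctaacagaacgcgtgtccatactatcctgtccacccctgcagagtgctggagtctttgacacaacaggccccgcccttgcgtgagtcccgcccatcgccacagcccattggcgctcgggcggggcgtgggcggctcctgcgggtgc
Tpi1: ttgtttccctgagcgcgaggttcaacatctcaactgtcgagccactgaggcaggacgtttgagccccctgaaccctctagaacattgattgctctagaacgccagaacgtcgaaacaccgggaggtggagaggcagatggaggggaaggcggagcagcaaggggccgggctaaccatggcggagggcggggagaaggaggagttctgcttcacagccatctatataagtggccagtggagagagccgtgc
Pfkfb3: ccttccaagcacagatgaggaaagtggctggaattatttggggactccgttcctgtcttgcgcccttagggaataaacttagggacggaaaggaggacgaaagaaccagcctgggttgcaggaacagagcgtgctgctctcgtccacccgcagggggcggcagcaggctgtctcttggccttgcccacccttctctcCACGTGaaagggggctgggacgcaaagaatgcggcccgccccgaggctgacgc

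The steps of glycolysis that the 9 genes leave out were read from a list of 28 other enzymes, of which 12 were above background in the control comparison. Of these 12, 10 were lower on the Esam(hi) array and 2 higher, with a median of -0.41 (level-matched median -0.20), where 71.2% of all genes were lower. The lower ones included 3 at least 2-fold, beside 11.6% of all genes: the aldolase Aldoa (9.48, 10.77 and 10.66), the phosphoglycerate mutase Pgam1 (8.44, 9.78 and 9.78) and the phosphoglucomutase Pgm2 (7.92, 8.97 and 8.97). None of the 12 was 2-fold lower after level matching. Aldoa and Pgam1 act directly before and after the triose steps of Tpi1 and Pgk1, and both lay below the 10th percentile of genes of like level, as Pgk1 did. Pkm, the pyruvate kinase of most tissues, read 10.01, 10.66 and 10.66, a control difference of -0.65. Eno3, an enolase best known from muscle, went the other way with 9.39, 9.31 and 9.22 and lay above the 90th percentile of its neighbours. Gapdh was named only by 25 probe sets shared with other genes, and Eno1 by none, so neither is given.

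**Figure D3:**
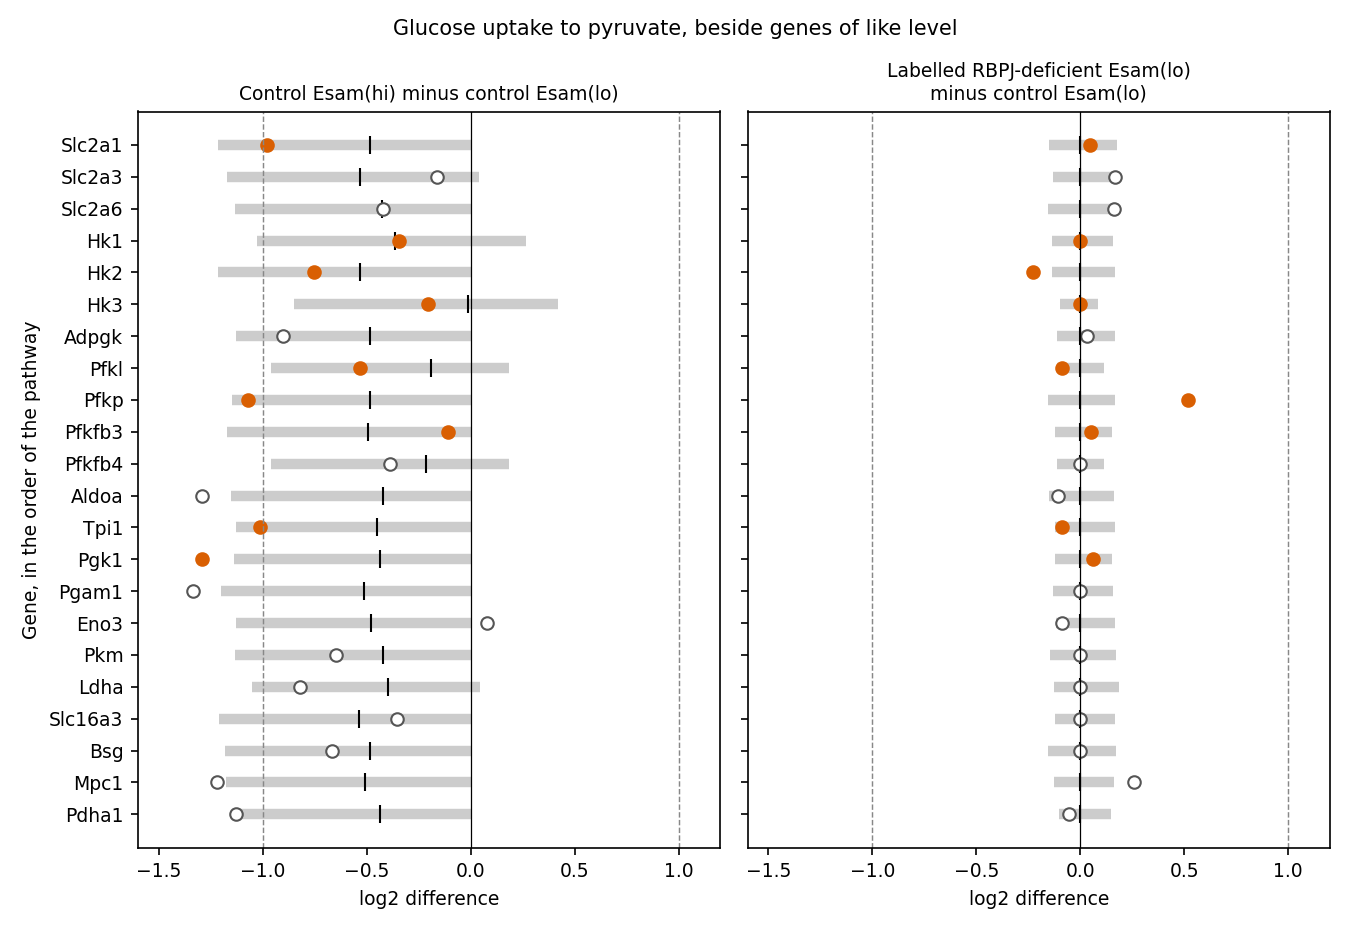
Difference of log2 values (horizontal axes) for genes in the order from glucose uptake to mitochondrial pyruvate entry (vertical axis), control Esam(hi) minus control Esam(lo) on the left and labelled RBPJ-deficient minus control Esam(lo) on the right. Orange points are the 9 measured genes, open points other pathway genes, black ticks the median and grey bars the 10th to 90th percentile of 500 genes of like level, and dashed lines 2-fold. On the left Aldoa, Pgk1, Pgam1, Mpc1 and Pdha1 lie below the bars and Eno3 above. On the right Hk2 lies below its bar and Pfkp, Slc2a3 and Mpc1 above theirs.

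Beyond pyruvate, all 14 genes of lactate and pyruvate handling above background were lower on the control Esam(hi) array, as were 71.2% of all genes. Their median was -0.67 (level-matched median -0.40). After level matching 13 of 14 were below 0, as were 50.7% of all genes. On the deposited values 4 of the 14 passed the 2-fold rule, beside 11.6% of all genes. For 3 of these both arrays were above background: the mitochondrial pyruvate carrier subunit Mpc1 (8.60, 9.82 and 10.08), the pyruvate dehydrogenase subunit Pdha1 (7.91, 9.04 and 8.99) and its inhibitory kinase Pdk3 (7.72, 8.97 and 8.96). The other, the monocarboxylate transporter Slc16a7, was not above background on the Esam(hi) array and was only bounded, at least 1.11-fold lower there. Ldha, which turns pyruvate into lactate, read 10.21, 11.03 and 11.03, a control difference of -0.82. The pentose phosphate branch, which starts from the product of the hexokinases, had 7 genes above background. Of these 5 were lower, near the share of 71.2% over all genes, 2 tied and 1 was at least 2-fold lower. After level matching 3 of the 7 were below 0 and 4 above, with a median of 0.01. The gene past 2-fold was Pgd, a dehydrogenase of the branch, with 8.17, 9.90 and 9.98, and its level-matched difference of -1.19 was wider than that of any of the 9 genes.

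Genes of the HIF pathway, which regulates several of the 9 genes in other settings, were read from a list of 23, of which 14 were above background. On the control Esam(hi) array 13 of these were lower and 1 tied, with a median of -0.61, where 71.2% of all genes were lower. The level-matched median was -0.27, with 10 of 14 below 0, as were 50.7% of all genes. At least 2-fold lower were 4 of the 14, beside 11.6% of all genes, and none after level matching. These 4 were Hif1a, the oxygen-regulated subunit (8.76, 9.87 and 10.03), the mitophagy receptor Bnip3l (10.20, 11.52 and 11.61), the growth factor Vegfa (9.22, 10.43 and 10.75) and the collagen prolyl hydroxylase subunit P4ha1 (7.26, 8.40 and 8.53). Of the genes of glycogen turnover and gluconeogenesis, 5 of 6 above background were lower, beside 71.2% of all genes. The glycogen branching enzyme Gbe1, chosen after its values were seen, was the gene past 2-fold on the deposited values, with 5.80, 6.95 and 7.12. Its Esam(hi) value was below background, and the control Esam(lo) value was below that same Esam(hi) background (7.17), so no fold is given.

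**Figure D4:**
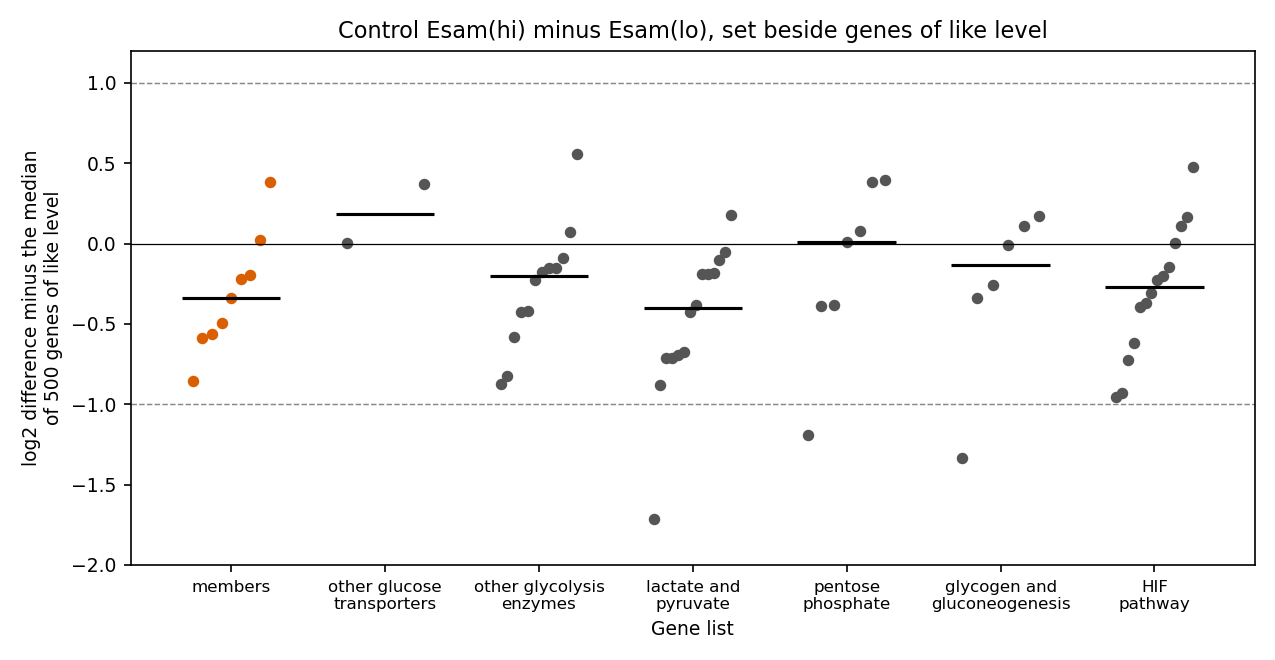
Level-matched differences (log2, control Esam(hi) minus control Esam(lo), less the median of 500 genes of like level; vertical axis) of genes above background by list (horizontal axis). Each point is 1 gene, the short bars are list medians, orange marks the 9 measured genes, and dashed lines mark 2-fold. The medians lie at -0.34 for the 9 genes, -0.20 for other glycolysis enzymes, -0.40 for lactate and pyruvate genes and -0.27 for HIF pathway genes. They lie at -0.13 for glycogen and gluconeogenesis, 0.01 for pentose phosphate and 0.19 for other glucose transporters. The 2 other glucose transporters both lie above 0, and the single genes of each further list spread on both sides of 0.

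The comparison of the array labelled RBPJ-deficient with the control Esam(lo) array asks what loss of RBPJ changes among Esam(lo) cells. None of the 9 genes was 2-fold apart, and over all 9348 genes above background 0.193% were at least 2-fold lower and 0.0749% higher. Of the 9, 3 were lower, as were 30.6% of all genes, 4 were higher, as were 29.3%, and 2 tied, with a median of 0. An exact tie, as Hk3 and the brighter Hk1 probe set gave, was found for 40.1% of all genes. Such ties can come from combining probes by median polish over few arrays and do not show equal expression. Pfkp stood out on the high side with 10.50 against 9.98, a difference of 0.52 (1.43-fold), above the 90th percentile of its neighbours (0.17), as were 10.1% of all genes. Other scalings left it between 0.51 and 0.52. Hk2 lay on the low side with 9.19 against 9.42, a difference of -0.23, below the 10th percentile of its neighbours (-0.13), as were 10.7% of all genes. Slc2a1, Pgk1 and Pfkfb3 differed by 0.05 to 0.06, and Pfkl and Tpi1 each by -0.09. None of the listed genes of glucose transport, glycolysis, lactate and pyruvate, pentose phosphate, glycogen or HIF was 2-fold apart between these arrays.

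The array labelled RBPJ-deficient was also set beside the control Esam(hi) array. This comparison shares an array with each of the others, so its values are not independent of theirs. All 9 genes had higher deposited values on the labelled array (7 after level matching), as had 68.7% of the 9312 genes above background, with a median of 0.53 for the 9 and 0.31 for all. At least 2-fold higher were 3 of the 9, where 12.9% of all genes were: Slc2a1 (difference 1.03), Pgk1 (1.35) and Pfkp (1.59, or 3.01-fold). Tpi1 followed with 0.92. After level matching, Pfkp kept a difference of 1.05, past 2-fold as were 5.71% of all genes, and it was the only one of the 9 to do so, with Pgk1 next at 0.90. Pfkfb3 changed sign, from 0.16 to -0.37, and Hk1 from 0.34 to -0.02 (by its other probe set the level-matched difference was 0.24).

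Among the other listed genes, those at least 2-fold higher in labelled than in control Esam(hi) cells were Aldoa (difference 1.19), Pgam1 (1.34) and Pgm2 (1.05) of the glycolysis enzymes, and Mpc1 (1.48), Pdha1 (1.08), Pdk3 (1.25) and Dld (1.15) of the pyruvate and lactate list, where 12.9% of all genes were. Slc16a7 and Gbe1 also passed 2-fold on the deposited values, with control Esam(hi) values below background. Slc16a7 was at least 1.24-fold higher, and for Gbe1 no fold is given. Dld, the dehydrogenase subunit shared by several mitochondrial complexes, read 7.40, 8.30 and 8.55 on the 3 arrays. Pgd was 1.80 higher, or 3.49-fold. The HIF list added Hif1a (1.26), Bnip3l (1.42), Vegfa (1.54) and P4ha1 (1.27). After level matching, 5.71% of all genes were 2-fold higher. None of the 13 other glycolysis enzymes above background was, and of 14 lactate and pyruvate genes only Slc16a7 was. Pgd and 3 of 14 HIF genes also were. Gbe1 passed this rule too, but neither of its values (5.80 and 7.12) was above the Esam(hi) background of 7.17. Aldoa, Pgm2 and Pdha1 lay between the 10th and 90th percentiles of their neighbours, and Pgam1, Mpc1, Pdk3 and Dld above.

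Markers of other myeloid cells differed between the same arrays as the 9 genes. Of 7 monocyte markers listed, 6 were on the array and 5 were above background in the control comparison. All 5 were at least 2-fold lower on the control Esam(hi) array, and 4 after level matching, beside 11.6% and 4.98% of all genes. Cx3cr1, which is on this list, carries the GFP used in the sort. The summed linear signal of the 6 was 2514 there, 15221 for control Esam(lo) and 15855 for labelled cells. The neutrophil markers, 7 of 7 on the array, summed to 6038, 13120 and 14442. On the control Esam(hi) array 4 of them were at least 2-fold lower (2 after level matching), and 1 was higher. Macrophage markers, with 3, 5 and 5 of 7 above background on the 3 arrays, summed to 1959, 2649 and 2651. C1qb was the one at least 2-fold lower on the control Esam(hi) array, and 1 of the list was after level matching. Plasmacytoid DC markers, with 3 of 4 above background on each array, summed to 865, 1394 and 1431. Tcf4 was at least 2-fold lower on the control Esam(hi) array, none was after level matching, and Siglech was not above background on any. These sums are of deposited values, which hold the array-wide shift. Markers of conventional DCs summed to 42566, 44915 and 45168, and those of CD11b+ DCs to 6284, 8278 and 8437. In the control comparison the level-matched difference was above 0 for 6 of 7 conventional DC markers and below 0 for 1 (median 0.29). Of 5 CD11b+ DC markers 3 were above 0 and 2 below (median 0.32), where 50.7% of all genes were below. Some listed markers of other cells were not above background on any array. Among them were Cd79a and Ms4a1 of B cells, Cd3d and Cd3g of T cells, Ncr1 and Gzma of NK cells and Pf4 of platelets. One marker of each of these lists was above it, Cd79b and Cd3e on all 3 arrays and Klrk1 on both Esam(lo) arrays. The platelet marker Itga2b was above it on the control Esam(hi) array (7.22). Their deposited control differences were -0.92 for Cd79b, 0.01 for Cd3e, -2.18 for Klrk1 and 0.63 for Itga2b. Whether the transcripts of these lists came from other cells or from the sorted DCs was not tested. Any part of other cells in the differences of the 9 genes was not tested either.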

How the data were processed

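The deposited values are on the log2 scale and were made by the authors with RMA and Affymetrix Expression Console, per the submitters' processing notes. Versions, and which arrays were normalized together, are not stated in what was used here. Array medians were 6.67 for control Esam(hi), 6.55 for control Esam(lo) and 6.56 for the labelled cells. RMA's median polish over few arrays can give exact ties. Of 35556 probe sets, 21789 name 1 gene in the platform annotation and were used, and 1621 name several. For 999 of 19938 genes several probe sets exist, and the brightest on average was taken. A gene entered a comparison if its brighter array exceeded background, and counts use at least 2-fold on the deposited values. A fold over an array below background is taken against that background and written as at least. With 1 array per group, their number limits the precision and no test was made. Members were given by name, and the members and lists were chosen with earlier results of these data known. Named genes are all members, the genes filling the steps between them, and pathway genes past 2-fold. Some other genes are named outside this rule, among them Slc2a2, Slc2a4, Slc2a6 and Eno3. Alternatives were centring, quantile normalization, lowess (span 0.2), other filters, folds and neighbours, and the mean over probe sets. The like-level calculation was tested on simulated data. Python 3.11.15, numpy 2.4.6, pandas 2.3.3 and statsmodels 0.14.6 were used.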

Additional observations from a re-analysis of the deposited data

How the results depend on the processing

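With each array centred on its median, without a filter on dim genes, or with the mean over all probe sets of a gene, the counts of genes at least 2-fold apart stayed within 1.5 times. In the control comparison the count of 3 became 1 with quantile normalization and 0 with like-level residuals or a lowess trend removed. It was 5 under a 1.5-fold rule and 0 under a 3-fold rule. The median of -0.76 became -0.45 with quantile normalization, -0.34 with like-level residuals and -0.31 with lowess. A stricter filter, which kept 7 of the 9 genes, gave -0.98. Between the labelled and the control Esam(hi) array the count of 3 became 1 with like-level residuals, with lowess and under a 3-fold rule. The median of 0.53 there became 0.31 with quantile normalization, 0.22 with like-level residuals, 0.23 with lowess and 0.92 with the stricter filter. The median over all genes kept in the control comparison moved from -0.32 to -0.11 with quantile normalization and -0.04 with lowess. Of the 9 genes, 9 were lower on the control Esam(hi) array as deposited, 8 with quantile normalization or lowess (Pfkfb3 higher) and 7 with like-level residuals (Pfkfb3 and Hk1 higher), or 8 with the other Hk1 probe set. In the comparison of the Esam(lo) arrays no setting gave a gene 2-fold apart. Reading Hk1 by its other probe set, chosen after seeing the data, gave a median of 0.61 between the labelled and control Esam(hi) arrays. No paired analysis was possible because each group has 1 array, and leaving out a replicate was not possible for the same reason. Over single genes, 168 of 216 differences moved by less than 0.156, the SD over genes of the difference between the Esam(lo) arrays. The count of 168 is no measure of stability, because many of these entries could not move. A filter leaves a gene's own difference unchanged, and a change of probe set reaches only genes with several. All 48 larger moves were in comparisons with the control Esam(hi) array. They came with quantile normalization, like-level residuals or lowess, or with the other Hk1 probe set. The cause of the array-wide shift was not tested.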
